A study of Gallus gallus with 9 samples.

Results

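Receptors for neurotransmitters were followed in the chick olfactory placode, the thickened ectoderm of the head that gives rise to the olfactory epithelium and to gonadotropin-releasing hormone (GnRH) neurons. The genes were chosen by name. They were all genes with a chicken probe set whose single annotated symbol begins GABR, GRIA, GRIK, GRIN, GRM, CHRN, CHRM, HTR, DRD, GLRA, ADRA or ADRB, with a number required after GRIN, GRM and HTR. This gave 81 of the 13008 genes on the array, read by 141 probe sets, and the symbols fell into 11 families, with none beginning ADRB. Placodes were taken at stages 16, 18 and 20 of the Hamburger and Hamilton (HH) series, and the study's title ties these stages to the start of GnRH neuron formation. Each stage had 3 samples, called biological replicates by the labels, and each sample was read on 1 Affymetrix chicken array. No treatment or genotype is named for any group, so stage is the only contrast. The strain and the number of embryos pooled in a sample are not given in the sources used here.

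Transmitter receptors work in either of these ways. Ionotropic receptors are channels of several subunits: the AMPA (GRIA), kainate (GRIK) and NMDA (GRIN) receptors for glutamate and the nicotinic receptors (CHRN) pass cations, and the GABA-A (GABR) and glycine (GLRA) receptors pass chloride. Metabotropic receptors act through G proteins: this group holds the receptors for dopamine (DRD), the muscarinic (CHRM) and adrenergic (ADRA) receptors, the metabotropic glutamate receptors (GRM) and nearly all serotonin receptors (HTR), HTR3A being a channel. Young neurons of many regions carry such receptors before they form synapses, and GABA and dopamine are both known to act on GnRH neurons of vertebrates.

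Levels below are normalized log2(intensity + 16), quantile normalized between arrays, and a fold change on this scale understates the change of dim genes. The level of one gene cannot be set against that of another on such arrays. The deposited signals were not on a common scale, with trimmed array means of 68.7 to 163, the highest in HH16 replicate 1. A probe set counted as above background on an array when it exceeded the 99th percentile of the virus probe sets there, a limit of 13.9 on HH18 replicate 2 and of 6.17 to 8.70 on the other arrays. Arrays of the same stage correlated at 0.984 to 0.993 across tested probe sets, and no 2 arrays were identical. Arrays of different stages correlated at 0.979 to 0.989, so the ranges overlapped. Of 16 olfactory placode markers, 13 were measured, and each was above background on at least 1 array.

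Most receptor genes gave little or no signal. Of the 81 genes, 14 (17.3%) were above background on all 9 arrays, 28 (34.6%) on some and 39 (48.1%) on none. Among all 13008 genes the shares were 63.2%, 21.9% and 14.9%. The 14 genes were DRD5, HTR1D, ADRA2A, ADRA2C, GRM4 and GRM7 among the metabotropic receptors, and GABRB2, GLRA4, GRIA2, GRIA3, GRIK1, GRIK3, GRIN3A and CHRNA1 among the channels. Every family except the muscarinic receptors had at least 1 of them. That exception turned on 1 array. CHRM3, CHRM4, GABRA2 and CHRNA3 were above background on every array but HH18 replicate 2. There CHRM4, GABRA2 and CHRNA3 read 12.3, 13.0 and 13.8 as deposited, under its high limit of 13.9. CHRM3 read 4.8 there, which is under the limit of every array. NMDA receptors need the subunit encoded by GRIN1, and GRIN1 was above background on no array, so only the accessory subunit gene GRIN3A was measured throughout. No measured gene for a gamma or delta subunit of the GABA-A receptor (GABRG1, GABRG3 and GABRD) was above background on more than 1 array. A value under this limit is a bound on the signal of the probe set and does not show that the RNA was absent.

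**Figure D1:**
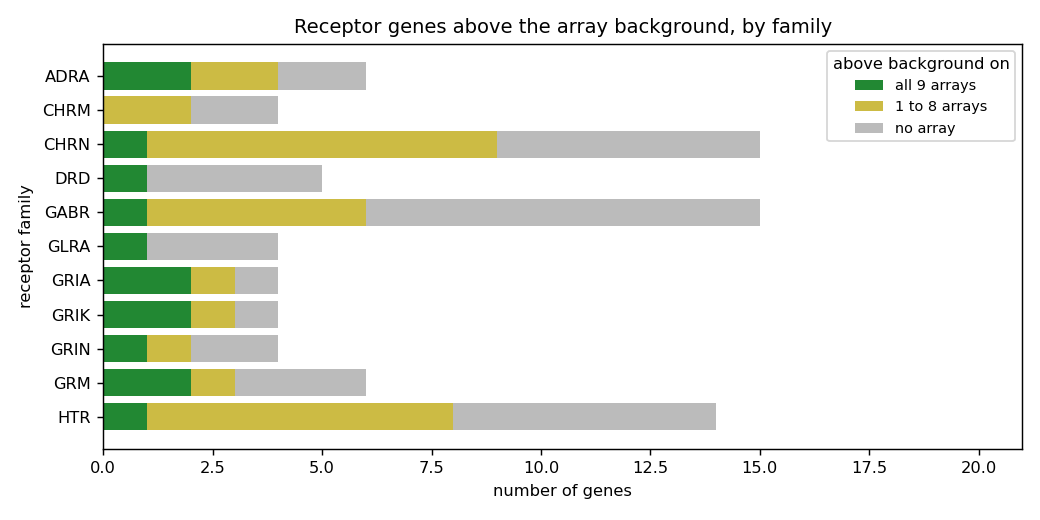
Number of receptor genes (horizontal axis) in each of the 11 families (vertical axis) whose representative probe set was above background on all 9 arrays, on 1 to 8 arrays or on no array. The GABR and CHRN families hold 15 genes each, of which 1 in either family was above background on every array. GABRA2, CHRNA3, CHRM3 and CHRM4 missed that group only on HH18 replicate 2, the array with the highest limit.

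By the limits of the single arrays, a few genes were above background at HH20 alone. CHRNA4, a subunit of neuronal nicotinic receptors, was above background on 0 of 3 HH16 arrays, 0 of 3 HH18 arrays and 2 of 3 HH20 arrays, and the metabotropic glutamate receptor GRM2 and the serotonin receptor HTR7 gave the same counts. The GRM2 intensities as deposited were 1.3, 1.6 and 0.70 at HH16, 0.90, 5.6 and 4.3 at HH18 and 13.0, 8.8 and 3.0 at HH20, so the last HH20 array lay within the HH18 range. Neither CHRNA4 (adjusted p = 0.27) nor HTR7 (adjusted p = 0.92) passed between HH20 and HH16, and GRM2 was too dim to be tested. HTR7 did not rise (log2 change -0.04), and its counts turned on the limit of each array. Its deposited intensity of 6.7 counted as above background on HH20 replicate 3 but not on HH16 replicate 1. The share of all genes with such counts is not given here.

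A filter on dim probe sets left 37 of the 81 genes for testing, and 44 were not tested. Across the whole array it left 10616 of 13008 genes. A gene passed, and is called higher or lower, where its limma adjusted p was below 0.05. The comparison of HH20 with HH16 asks which receptors changed over the whole period. DRD5 rose, GABRB2 and HTR1D fell, and 34 tested genes did not pass. Thus 1 of 37 was higher, beside 7.14% of all tested genes, and 2 were lower, beside 6.83%. In all, 8.11% of the tested receptor genes were called, against 14.0% of all tested genes. The median log2 change of the 37 genes was 0.03, that of all tested genes was 0.0017, and 22 of the 37 had a positive change. Changes of the 34 genes that did not pass lay between -0.37 (GABRA2) and 0.53 (CHRNA1). Their 95% confidence intervals reached from -0.83 to 0.91 on the log2(intensity + 16) scale, which compresses the changes of dim genes, so they set no limit on the fold change of the RNA. In bulk samples, a change in the number of cells of a type and a change in RNA per cell cannot be told apart.

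**Figure D2:**
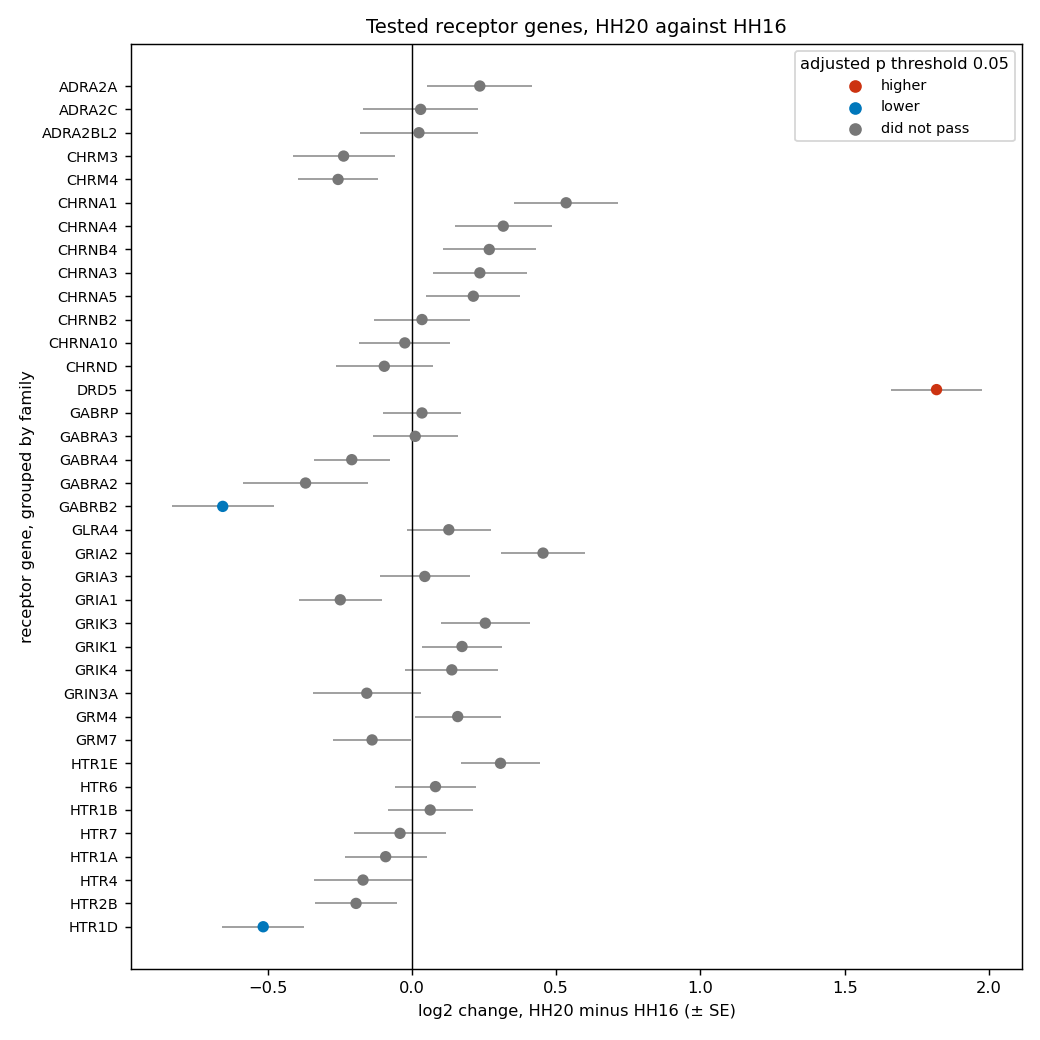
Log2 change between HH20 and HH16 (HH20 minus HH16, horizontal axis) with its standard error for the 37 tested receptor genes, grouped by family down the vertical axis. DRD5 lies at 1.82, GABRB2 at -0.66 and HTR1D at -0.52, and the grey genes did not pass the threshold.

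In the earlier step, HH18 against HH16, DRD5 was higher (1 of 37, beside 2.92% of all tested genes) and GABRB2 was lower (1 of 37, beside 2.98%). That is 5.41% of the receptor genes called, against 5.90% of all tested genes. In the later step, HH20 against HH18, limma called 0 of the 37, beside 0.471% of all tested genes (0.358% higher and 0.113% lower). At an unadjusted p below 0.05 the later step had 1 receptor gene, DRD5, and the earlier step had 7. A moderated F test over the 3 stages called 2 of the 37, DRD5 and GABRB2, beside 11.0% of all tested genes. The contrast of the later with the earlier step called 0 of 37, beside 0.0188% of all tested genes, with 4 at an unadjusted p below 0.05 (DRD5, GABRB2, GRIA2 and GRIK1). Shares of all tested genes at the unadjusted threshold are not given here, so those counts are not set against the whole array.

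DRD5 encodes a dopamine receptor that raises cyclic AMP through stimulatory G proteins. Its brightest probe set read 5.09, 5.51 and 5.28 on the HH16 arrays, 6.70, 6.34 and 6.48 on the HH18 arrays and 7.27, 6.86 and 7.20 on the HH20 arrays. The 3 stages did not overlap. As deposited, the intensities were 32.4, 25.6 and 18.2 at HH16, 69.0, 62.1 and 55.0 at HH18 and 193, 99 and 118 at HH20, so the stages were apart before normalization too, although HH16 replicate 1 was the brightest array. The mean level was 7.11 ± 0.22 at HH20, against 5.29 ± 0.21 at HH16 (SD, n = 3 each), a 3.53-fold difference (log2 change 1.82 ± 0.16, SE, adjusted p = 1.7e-06). At HH18 it was 6.51 ± 0.18 (SD, n = 3), 2.32-fold above HH16 (1.22 ± 0.16, adjusted p = 0.00029). All 3 HH20 arrays lay above all 3 HH18 arrays, but the difference of 0.60 ± 0.16 did not pass (adjusted p = 0.14, 95% confidence interval 0.27 to 0.93). The later step differed from the earlier by -0.62 ± 0.27 (adjusted p = 0.48).

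The other probe set annotated to DRD5 was dim and showed no such pattern. It read 4.59, 4.82 and 4.59 at HH16, 4.58, 4.44 and 4.28 at HH18 and 4.61, 4.67 and 4.39 at HH20, and was above background on 2, 0 and 2 arrays of these stages. Its log2 change between HH20 and HH16 was -0.12 ± 0.15 (adjusted p = 0.70). With the mean of both probe sets, DRD5 was higher at HH20 than at HH16 by 0.85 (adjusted p = 0.00096). On the values as deposited the difference between HH18 and HH16 did not pass (0.93, adjusted p = 0.44), while that between HH20 and HH16 did (1.85, adjusted p = 0.00015).

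The other dopamine receptor genes were above background on no array. DRD1, which like DRD5 acts through stimulatory G proteins, read 4.01 to 4.29 over the 9 arrays. DRD2, DRD3 and DRD4 act through inhibitory G proteins. DRD2 read 4.01 to 4.39 and DRD4 read 4.03 to 4.40. DRD3 read 4.14 to 4.75, with its highest value on HH18 replicate 2, the array with the brightest virus probe sets. None of these 4 genes passed the filter, so no difference between stages was tested for them.

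**Figure D3:**
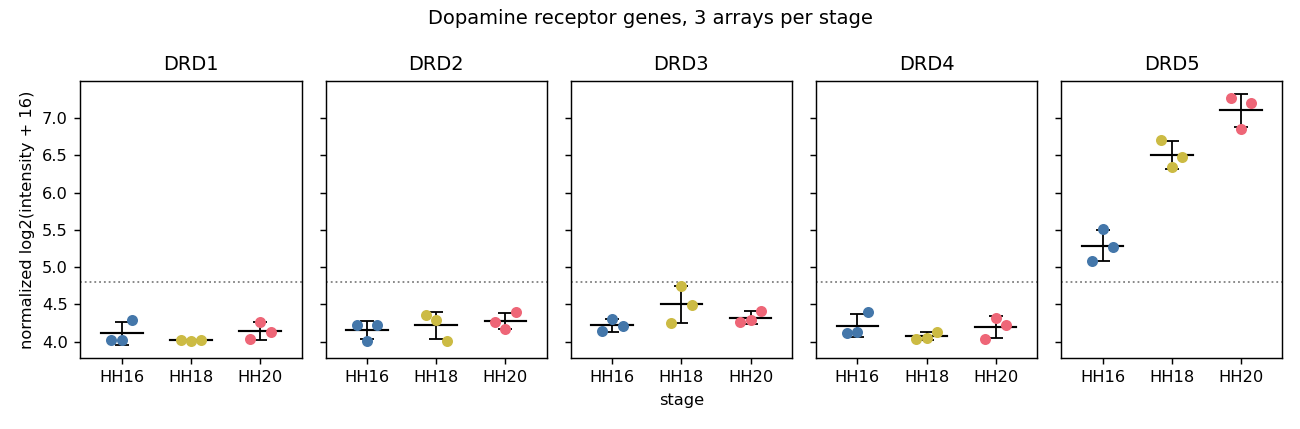
Normalized log2(intensity + 16) of the 5 dopamine receptor genes on each array (points), by stage, with the stage mean (line) and SD (bar, n = 3). The dotted line is the highest of the per-array background limits; DRD1 to DRD4 lie below it on all 9 arrays and DRD5 lies above it on all 9.

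Among the serotonin receptors, HTR1D, which acts through inhibitory G proteins, was the gene that fell. It read 6.34, 6.41 and 6.35 at HH16, 6.25, 5.76 and 6.01 at HH18 and 5.89, 5.87 and 5.80 at HH20. After normalization the HH20 and HH16 arrays were tightly grouped and apart. The HH18 arrays spread from below the HH20 arrays to just under the HH16 arrays. As deposited, the intensities were 122, 61.9 and 53.4 at HH16 and 57.9, 42.3 and 35.5 at HH20, so these stages overlapped before normalization. The level was 5.85 ± 0.05 at HH20, against 6.37 ± 0.04 at HH16 (SD, n = 3 each), 1.43-fold lower (log2 change -0.52 ± 0.14, SE, adjusted p = 0.026). HTR1D at HH18 differed from HH16 by -0.36 ± 0.14 (adjusted p = 0.17), at HH20 from HH18 by -0.16 ± 0.14 (adjusted p = 0.80), and the F test did not pass (adjusted p = 0.064). The call was lost without HH16 replicate 2 or 3 or any 1 HH20 replicate (highest adjusted p = 0.086), after centring each array at its median (adjusted p = 0.15), with the mean of both probe sets (adjusted p = 0.22) and on unnormalized values (adjusted p = 0.98). A second, dim probe set of HTR1D gave 0.12 ± 0.14 (adjusted p = 0.66). Of the 14 serotonin receptor genes 8 were tested, and 7 of these did not pass, with changes from -0.19 (HTR2B) to 0.31 (HTR1E).

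GABRB2, which encodes a beta subunit of the GABA-A receptor, had its highest levels at HH16. It read 6.60, 6.09 and 6.03 at HH16, 5.25, 5.59 and 5.68 at HH18 and 5.40, 5.53 and 5.83 at HH20. All HH16 arrays lay above all later ones, and the HH18 and HH20 arrays overlapped. The level was 5.59 ± 0.22 at HH20, against 6.24 ± 0.31 at HH16 (SD, n = 3 each), with a log2 change of -0.66 ± 0.18 (SE, adjusted p = 0.023). At HH18 it was 5.51 ± 0.23, with a log2 change against HH16 of -0.73 ± 0.18 (adjusted p = 0.026). HH20 and HH18 differed by 0.08 ± 0.18 (adjusted p = 0.94, 95% confidence interval -0.30 to 0.45).

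The calls of GABRB2 leaned on single arrays. Without HH16 replicate 1, its highest array, the changes were -0.46 for HH20 against HH16 (adjusted p = 0.098) and -0.54 for HH18 against HH16 (adjusted p = 0.090). The first call was also lost without HH20 replicate 1 or 2 (adjusted p = 0.12 and 0.085) and the other without HH18 replicate 1 or 2 (adjusted p = 0.092 and 0.062). Both were lost on the values as deposited (adjusted p = 0.62 and 0.23), without the filter (0.059 and 0.068) and with the mean of the 3 probe sets (0.057 and 0.068). The other 4 tested GABR genes did not pass, with GABRA2 at -0.37 ± 0.22 (adjusted p = 0.33), and 10 of the 15 GABR genes were not tested. The tested glycine receptor gene, GLRA4, read 4.79 ± 0.16 at HH16, 4.96 ± 0.15 at HH18 and 4.91 ± 0.09 at HH20 (SD, n = 3 each), with overlapping stages (HH20 against HH16 0.13 ± 0.14, adjusted p = 0.65; HH18 against HH16 0.17 ± 0.14, adjusted p = 0.56).

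Of the 9 tested ionotropic and metabotropic glutamate receptor genes, none passed in any of the 3 comparisons. GRIA2 encodes the AMPA receptor subunit that limits the entry of calcium. It read 5.07, 5.27 and 5.02 at HH16, 5.42, 5.62 and 5.82 at HH18 and 5.57, 5.61 and 5.53 at HH20, so the HH16 arrays lay below all the others. Its changes were 0.45 ± 0.15 for HH20 against HH16 (SE, adjusted p = 0.053, 95% confidence interval 0.15 to 0.76) and 0.50 ± 0.15 for HH18 against HH16 (adjusted p = 0.058). GRIA2 passed for HH18 against HH16 in 3 other settings, namely scaling to a common trimmed mean, a filter on the virus background and leaving out HH18 replicate 1 (lowest adjusted p = 0.044). It passed for HH20 against HH16 in 8 of the 23 other settings tried, among them a pseudocount of 1 (adjusted p = 0.045) and the fit to the arrays of these stages alone (adjusted p = 0.034). The 3 other tested GRIA2 probe sets had changes of the same sign between HH20 and HH16, from 0.18 to 0.38, and none passed. The GRIA2 representative is a probe set designed against several transcripts, as are those of GRIN3A, ADRA2A and some other receptor genes. Without such probe sets the GRIA2 change for HH18 against HH16 was 0.12 (limma adjusted p = 0.71). With the GRIA2 probe sets averaged it was 0.16 (limma adjusted p = 0.44).

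GRIK1, a kainate receptor subunit gene, was highest at HH18. It read 5.08, 5.28 and 5.19 at HH16, 5.63, 5.61 and 5.62 at HH18 and 5.40, 5.20 and 5.47 at HH20. The HH18 arrays lay above all others, and HH16 and HH20 overlapped. HH18 differed from HH16 by 0.43 ± 0.14 (adjusted p = 0.083) and HH20 from HH16 by 0.17 ± 0.14 (adjusted p = 0.49). GRIK3, another kainate subunit gene, had 2 probe sets with unequal results. Its representative changed by 0.25 ± 0.15 between HH20 and HH16 (adjusted p = 0.34), and its dimmer probe set, singled out after its values were seen, rose by 0.65 ± 0.19 (adjusted p = 0.036), with 4.64, 5.38 and 5.36 at HH20 against 4.67, 4.38 and 4.37 at HH16. These arrays overlapped, since HH20 replicate 1 lay below HH16 replicate 1.

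GRIA1, another AMPA receptor subunit gene, was dim and above background on 1 array, of HH16, and did not pass between HH20 and HH16 (adjusted p = 0.31). GRIN3A, an accessory NMDA receptor subunit, read 5.68 ± 0.43 at HH16, 5.77 ± 0.20 at HH18 and 5.52 ± 0.13 at HH20 (SD, n = 3 each). Its log2 change was -0.16 ± 0.19 for HH20 against HH16 (adjusted p = 0.68) and -0.25 ± 0.19 for HH20 against HH18 (adjusted p = 0.75). GRM4 and GRM7 encode receptors that act through inhibitory G proteins and restrain transmitter release. GRM4 read 5.61 ± 0.22 at HH16, 5.85 ± 0.17 at HH18 and 5.77 ± 0.06 at HH20 (SD, n = 3 each), with changes of 0.16 ± 0.15 for HH20 against HH16 (adjusted p = 0.57) and 0.23 ± 0.15 for HH18 against HH16 (adjusted p = 0.43). GRM7 changed by -0.14 ± 0.14 between HH20 and HH16 (adjusted p = 0.59). The 6 other GRM7 probe sets were all too dim to be tested.

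Among the nicotinic receptors 8 of 15 genes were tested and 0 passed with limma in any comparison. CHRNA1, which encodes the alpha subunit of the muscle-type receptor, came nearest. It read 5.36, 5.94 and 6.03 at HH16, 6.28, 6.12 and 6.50 at HH18 and 6.13, 6.26 and 6.55 at HH20, with the HH16 arrays below all the others. Its change was 0.53 ± 0.18 for HH20 against HH16 (SE, adjusted p = 0.065, 95% confidence interval 0.16 to 0.91). It passed in 3 of 23 other settings: scaling to a common trimmed mean (adjusted p = 0.037), a block for replicate number (adjusted p = 0.042) and leaving out HH16 replicate 3 (adjusted p = 0.049). Without HH16 replicate 1, its lowest array after normalization, the change was 0.32 (adjusted p = 0.25). As deposited, CHRNA1 read 46.4 on that array, against 39.9 and 40.2 on the other HH16 arrays. Of the other muscle-type subunit genes measured here, CHRND was above background on 2 arrays and CHRNG on none. Of 14 skeletal muscle markers 11 were measured, and MYOD1, MYF5 and MYOG, the factors that set up muscle, were above background on no array. Of the 7 tested markers PAX7 was lower at HH20 (-1.03 ± 0.16, adjusted p = 0.00046) and 6 did not pass, beside 6.83% of all tested genes lower. The list's summed normalized signal was 213 to 284 at HH20, against 317 to 394 at HH16. Any part of muscle cells in the CHRNA1 values was not tested.

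**Figure D4:**
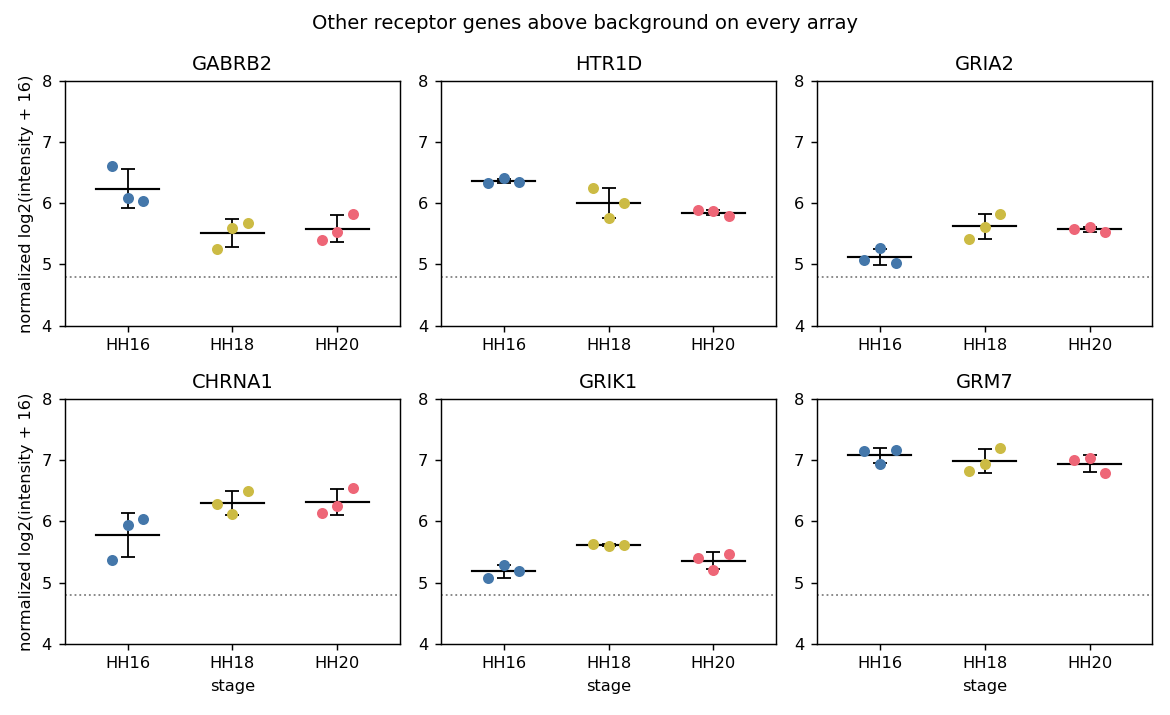
Normalized log2(intensity + 16) of 6 receptor genes above background on every array (points are arrays), by stage, with the stage mean (line) and SD (bar, n = 3). The dotted line is the highest per-array background limit. HH16 arrays lie above the later ones for GABRB2 and below them for GRIA2 and CHRNA1, HH18 arrays are highest for GRIK1, and the stages overlap for GRM7.

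Of the muscarinic receptor genes 2 of 4 were tested, and of the adrenergic receptor genes 3 of 6. None of those tested passed in any comparison. CHRM3, which acts through Gq proteins, read 5.16 ± 0.15 at HH16, 4.73 ± 0.40 at HH18 and 4.92 ± 0.09 at HH20 (SD, n = 3 each). Its changes were -0.24 ± 0.18 for HH20 against HH16 (adjusted p = 0.46) and -0.43 ± 0.18 for HH18 against HH16 (adjusted p = 0.19), where the lowest array was HH18 replicate 2. ADRA2A, an inhibitory receptor for noradrenaline, read 4.97 ± 0.24 at HH16, 4.93 ± 0.27 at HH18 and 5.20 ± 0.28 at HH20 (SD, n = 3 each), with changes of 0.24 ± 0.18 for HH20 against HH16 (adjusted p = 0.48) and 0.27 ± 0.18 for HH20 against HH18 (adjusted p = 0.71).

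Probe sets of the same gene did not always share a sign. Of the 37 tested genes 14 had another tested probe set, 17 such probe sets in all, and 11 of the 17 changed between HH20 and HH16 with the sign of the representative. Small changes can differ in sign by noise, and 33 of the 37 representatives changed by less than 0.5. Sign agreement over all genes is not given here. Of the 17 other probe sets, few were far above background. The only one of them called in any comparison was that of GRIK3. The calls of DRD5, GABRB2 and HTR1D therefore each rested on 1 probe set, the brightest of the gene.

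**Figure D5:**
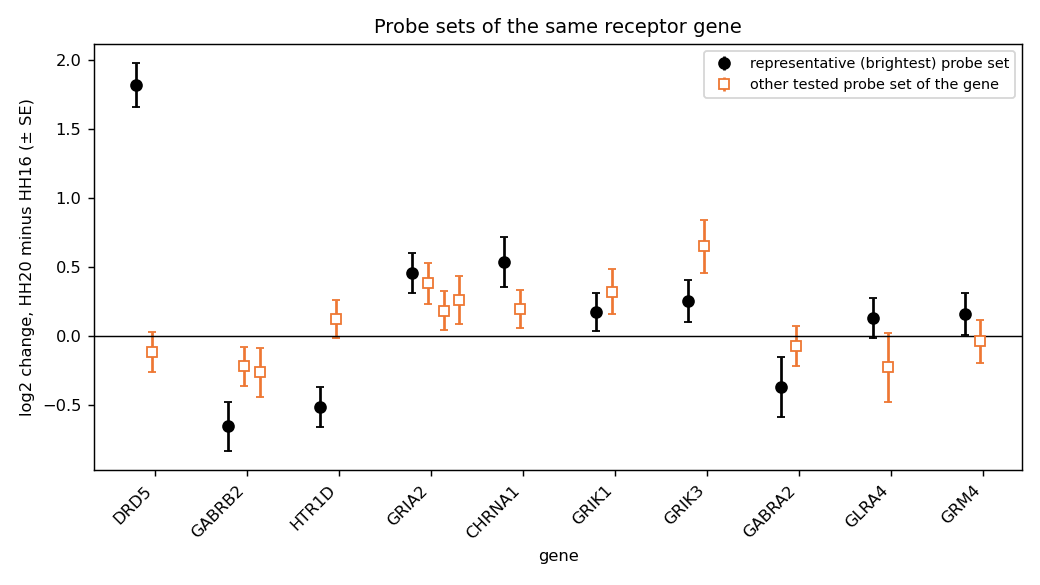
Log2 change between HH20 and HH16 (HH20 minus HH16, vertical axis) with its standard error for the tested probe sets of 10 receptor genes (horizontal axis), with the representative as a filled circle and the others as open squares. The other probe set of DRD5 lies at -0.12 and the representative at 1.82, and all 4 probe sets of GRIA2 lie above 0.

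Genes that act with these receptors were read from lists by their role, and their counts stand beside 7.14% of all tested genes higher and 6.83% lower at HH20 than at HH16. In the list of stimulatory G protein and cyclic AMP signalling, the route used by DRD5, 5 of 23 tested genes rose, 1 fell and 17 did not pass between HH20 and HH16, with a median log2 change of 0.11. PDE4D, a phosphodiesterase that breaks down cyclic AMP, was at 7.08 ± 0.03 at HH20, against 6.05 ± 0.40 at HH16 (SD, n = 3 each), a log2 change of 1.03 ± 0.16 (SE, adjusted p = 0.00060). PDE8B, another such enzyme, rose by 0.67 ± 0.15 (adjusted p = 0.0082). Of the enzymes that make cyclic AMP, ADCY7 rose by 0.76 ± 0.17 (adjusted p = 0.0082) and ADCY2 fell by 0.82 on the log2 scale (SE 0.18, adjusted p = 0.0058). The ADCY7 call was lost with its probe sets averaged, with array medians centred and on the values as deposited. The other 2 rises were those of PDE10A and of GNAL, the stimulatory G protein alpha subunit of olfactory neurons.

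In the list of inhibitory and Gq signalling with its regulators, 1 of 29 tested genes rose, 2 fell and 26 did not pass (median 0.06). The 3 calls became 1 without HH20 replicate 1 or 2 and 5 without HH18 replicate 3. RGS3, which speeds the shut-off of G proteins, was at 6.07 ± 0.05 at HH20, against 7.37 ± 0.24 at HH16 (SD, n = 3 each), a log2 change of -1.30 ± 0.18 (SE, adjusted p = 0.00017). The RGS3 call was lost with its probe sets averaged. Of the inhibitory alpha subunits, GNAZ rose by 0.57 ± 0.14 (adjusted p = 0.012), while GNAI2 was lower at HH20, at -0.42 ± 0.11 (adjusted p = 0.025). The GNAZ call was lost in 5 of 23 other settings, among them without HH20 replicate 1 or 2. That of GNAI2 was lost in 7, among them without HH16 replicate 2 or 3 or any 1 HH20 replicate.

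Among proteins that assemble, anchor or modify receptors, 4 of 26 tested genes rose, 1 fell and 21 did not pass (median -0.02). The 5 calls became 2 without HH20 replicate 3. RIC3, a chaperone for the assembly of nicotinic receptors, read 6.04, 6.16 and 6.09 at HH16, 7.0, 7.17 and 6.94 at HH18 and 7.22, 7.02 and 7.20 at HH20. It rose 2.07-fold between HH20 and HH16 (1.05 ± 0.13, adjusted p = 3.8e-05), by a probe set designed against several transcripts. Without such probe sets RIC3 was at -0.02 (adjusted p = 0.96), and with its probe sets averaged it was at 0.23 (adjusted p = 0.17). NLGN1, an adhesion protein of excitatory synapses, rose 2.02-fold (1.02 ± 0.18, adjusted p = 0.0016). The NLGN1 call was lost with its probe sets averaged and on the values as deposited. CACNG4, an auxiliary subunit of AMPA receptors, rose by 0.64 ± 0.15 (adjusted p = 0.011), and GABARAPL2, of the family of the GABA-A receptor-associated protein, rose by 0.46 ± 0.12 (adjusted p = 0.016). The GABARAPL2 call was lost in 6 of 23 other settings, among them without HH16 replicate 2 or HH20 replicate 2 or 3. The gene that fell was the scaffold gene DLG3.

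In the list of transmitter synthesis and breakdown 3 of 11 tested genes rose, 0 fell and 8 did not pass (median 0.27), and 1 call was left without HH16 replicate 3 or HH20 replicate 1. All 3 genes encode enzymes of breakdown. ACHE and BCHE, which split acetylcholine, rose by 0.68 ± 0.17 (adjusted p = 0.016) and 0.60 ± 0.13 (adjusted p = 0.0066). The ACHE call was lost in 5 of 21 other settings, among them without HH16 replicate 3 or HH20 replicate 1 or 3. That of BCHE was lost in 2 of 23. MAOB, which oxidises amines, was above background on 3 HH20 arrays and on no HH16 array, and its level at HH20 exceeded that at HH16 by at least 1.25-fold (limma adjusted p = 0.033), a call lost in 10 of 23 other settings. GAD1, which makes GABA, and DBH, which makes noradrenaline, were above background on no array. Of 11 tested transporter genes SLC1A3, a glutamate transporter, rose (0.58 ± 0.15, adjusted p = 0.021), 0 fell and 10 did not pass (median 0.02). The SLC1A3 call was lost in 7 of 23 other settings, among them without HH16 replicate 1 or 3 or HH20 replicate 1 or 3. Of 8 tested receptor subunits outside the naming rule GABBR2, a subunit of the metabotropic GABA-B receptor, rose (0.54 ± 0.17, adjusted p = 0.045) and 7 did not pass (median 0.01), and its call was lost in 12 of 23 other settings, among them without any 1 array of HH16 or HH20. Of 7 tested genes of the chloride gradient limma called 0 in this comparison (median -0.07), and 1 without HH16 replicate 1.

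Markers of neurons moved over the same period. Of 22 such markers 20 were measured and 19 tested, of which 16 were higher at HH20 than at HH16 and 3 did not pass, with a median log2 change of 0.68, beside 7.14% of all tested genes higher. The count was 9 without HH20 replicate 3 and 10 without HH16 replicate 1 or HH20 replicate 1. Their summed normalized signal was 4104 to 4451 at HH20, against 2162 to 2842 at HH16, and GAP43 was the marker above background on no array. CHGA, a protein of secretory granules, rose by 1.57 ± 0.15 and STMN2, which acts on microtubules, by 1.28 ± 0.12. Some markers of other cells moved too. Their counts, here and below, stand beside 7.14% of all tested genes higher and 6.83% lower. SNAI2 was on both the neural crest and the mesenchyme list and was counted as a call in each. The summed signal of blood vessel markers was 461 to 527 at HH20, against 141 to 312 at HH16 (2 of 11 tested rose, 0 fell, ROBO4 and TAL1 above background on no array). That of neural crest and glia markers was 2427 to 2771 at HH20, against 2958 to 3429 at HH16 (1 of 9 rose, 3 fell, NGFR above background on no array). That of mesenchyme markers was 4515 to 5016 at HH20, against 3701 to 4063 at HH16 (4 of 14 rose, 1 fell, ALX4 and TWIST2 above background on no array). That of heart muscle markers was 271 to 308 at HH20, against 600 to 761 at HH16 (0 of 4 rose, 3 fell, MYL2 and NPPA above background on no array). The median log2 changes were 0.25 (blood vessel), -0.06 (neural crest and glia), -0.07 (mesenchyme) and -1.11 (heart muscle). The mesenchyme sum thus rose while the median of its tested genes was slightly negative. The part of neurons and of these other cells in the changes of DRD5, GABRB2 and HTR1D was not tested.

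Of olfactory placode markers 4 of 13 tested rose and 1 fell, with LHX2 at 1.29 ± 0.15 and sums of 5872 to 6143 at HH20, against 5474 to 6188 at HH16. Surface epithelium markers had 4 rises among 10 tested and sums of 6935 to 7224 at HH20, against 5793 to 6297 at HH16, with DSG2 and KRT75 above background on no array. Macrophage and leukocyte markers had 2 rises among 9 and sums of 385 to 403 at HH20, against 206 to 250 at HH16, with C1QA and CYBB above background on no array. Erythrocyte markers had 1 rise among 4 and sums of 2263 to 2964 at HH20, against 1020 to 2263 at HH16, with EPB42 and SLC4A1 above background on no array. Lens markers had 1 rise and 1 fall among 12 and sums of 710 to 761 at HH20, against 401 to 472 at HH16, with CRYAA, CRYBB3 and FOXE3 above background on no array. Eye and forebrain markers had 1 rise among 7 and sums of 713 to 751 at HH20, against 545 to 717 at HH16, with NKX2-1, TBR1 and TYR above background on no array. The median log2 changes were 0.07 (olfactory placode), 0.22 (surface epithelium), 0.31 (macrophage and leukocyte), 0.88 (erythrocyte), 0.13 (lens) and -0.16 (eye and forebrain). Leaving out 1 array moved the count of calls by over 1.5 times in several lists. It was 3 in place of 5 for mesenchyme without HH20 replicate 1. It was 2 in place of 4 for neural crest and glia without HH16 or HH20 replicate 2, and for surface epithelium without HH20 replicate 1 or 2. It was 1 in place of 2 for blood vessel without HH16 replicate 1 or any 1 HH20 array, for macrophages without HH16 replicate 3 or HH20 replicate 1, and for lens without HH16 replicate 2 or 3 or any 1 HH20 array. The 1 erythrocyte call was lost without HH16 replicate 1 or 2 or any 1 HH20 array, and the count was 2 without HH16 replicate 3 and 4 without HH18 replicate 3. The 1 eye and forebrain call was lost without HH16 replicate 3 or HH20 replicate 2, and the count was 2 without HH16 replicate 2. The part of these cells in the receptor results was not tested either.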

How the data were processed

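The deposited values are linear intensities, 1 for every probe set on each array, made by the authors with MAS5, per the submitters' processing notes; its version and scaling are not given in the sources used here. Of 38535 probe sets, 689 for viruses, 96 controls and 57 reporters were left out. Genes are those of the platform annotation, and all 81 receptor symbols matched RefSeq's gene table by gene number. Sequences are not shown, as none were used here. Here log2(intensity + 16) was taken and the 9 arrays were quantile normalized. Chicken probe sets were tested where at least 3 arrays had them over that array's 40th percentile, and the brightest probe set by mean level represented a gene. All 9 arrays entered 1 model with a mean per stage, fitted with limma 3.58.1 (lmFit, eBayes with an intensity trend, R 4.3.3; 6 residual and 11.1 prior degrees of freedom), checked on simulated data. Two-sided p-values were adjusted by Benjamini and Hochberg's method over 24489 probe sets, and 0.05 was the threshold. Shares of all genes called are over representative probe sets. Named were every receptor gene called in a stage difference, every DRD gene, the gene of lowest F test p in a family without calls, and up to 4 called genes of a pathway list; other genes were named after their values were seen. A sum over a marker list adds normalized intensities. The receptor genes and lists were chosen with earlier results of these data known, the rise of DRD5 among them, so that rise is not independent support for the choice. Nothing says which embryos each sample came from. The p-values set the stage differences only against the spread between these samples, which may be technical. The number of arrays limits the precision.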

Additional observations from a re-analysis of the deposited data

How the results depend on the processing

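DRD5 stayed higher at HH20 than at HH16 and past the threshold in all 23 other settings (log2 change 0.85 to 2.37). The count of receptor genes called between HH20 and HH16, 3 here, was 1 on the values as deposited, 1 with all probe sets of a gene averaged and 5 with arrays scaled to a common trimmed mean, and ranged from 1 (without HH20 replicate 1 or 2) to 4 with each array left out. Between HH18 and HH16 the count, 2 here, was 3 with the common trimmed mean and with the virus-background filter, where GRIA2 passed too, 0 as deposited, and 1 without the filter, with the mean of probe sets, in the fit to the 6 arrays of these stages, and without HH16 replicate 1 and HH18 replicate 2 together, a setting chosen after seeing the data; it was 1 (without HH16 replicate 1 or HH18 replicate 2) to 2 with each array left out. The F test count, 2 here, was 1 as deposited, without the filter, with the mean of probe sets and without those 2 arrays together, 3 in 5 settings that include the common trimmed mean, and 1 (without HH16 replicate 1 or HH20 replicate 1) to 4 (without HH18 replicate 1) with each array left out. The later step and the step contrast kept a count of 0 in every setting run. Shares of all tested genes called in the other settings, or with an array left out, are not given here or above. These counts are therefore not set against the whole array, and a change in them is not a result about the receptor genes. As deposited, the median of all tested probe sets shifted by -0.25 between HH18 and HH16 and by 0.22 between HH20 and HH18. Only changes that did not pass turned sign: GRM4 for HH18 against HH16 as deposited (-0.046), HTR1D for HH20 against HH18 as deposited (0.11) and with medians centred (0.030), GLRA4 (-0.032) and GRM4 (-0.0095) for HH20 against HH16 with the mean of probe sets, and GABRB2 for HH20 against HH18, which ranged from -0.053 to 0.17 with each array left out. The exception was RIC3, whose called rise was read from a probe set shared by several transcripts. When such probe sets were dropped, another probe set stood for RIC3, with a change of -0.022. Why the RIC3 probe sets differ was not tested. Counts in the pathway lists moved between 0 and 7, lowest as deposited except for the chloride list. The neuron marker count was 3 as deposited, in place of 16. With the replicate block the receptor counts were 4, 2 and 0 for the 3 comparisons and 2 for the F test. Same-numbered arrays showed no shared deviation (correlations -0.13 to 0.06, against -0.18 to 0.14 for other numbers). Of the 9 arrays, 3 correlated best with their own number. So few arrays cannot settle whether equal numbers mark samples handled together, and the labels do not say. A probe set near background has little room to show a fall, which limits what 39 of the 81 genes can show.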
